A study of Drosophila melanogaster with 15 samples.

Results

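Histone deacetylases take acetyl groups off histone tails and other proteins. The zinc-dependent enzymes (HDACs) and the sirtuins, which consume NAD+, do this by different chemistry. Those that act on chromatin reach genes mainly through corepressors that DNA-binding factors recruit. In Drosophila the corepressor CoRest joins HDAC1 (long known as Rpd3) to Su(var)3-3, the fly homolog of the histone demethylase LSD1, so that 1 complex removes both acetyl and methyl marks, and Sirt1 (Sir2) acts in heterochromatin and with the repressor hairy. The transcripts described here are those of 10 genes chosen by name: HDAC1, HDAC3, HDAC4, HDAC6, Sirt1, Sirt2, Sirt4, Sirt6, CoRest and Su(var)3-3, out of 11982 genes that have a probe set of their own on the array. Of these 10 genes, 9 had such a probe set, and HDAC3 had none in the platform annotation used here, so its level is not given. The 9 genes were read by 11 probe sets, 3 of them for CoRest and 1 for each other gene, and all 11 were bright enough to be tested, with a mean Signal of 20 or more.

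The arrays held RNA of whole Canton-S B males, an inbred laboratory strain, 3 to 5 days old, in 3 treatments with 5 arrays each. Control flies had no ethanol. Flies of the 1st exposure were frozen directly after they fell through an inebriometer, a column filled with ethanol vapor in which flies lose postural control, and flies of the 2nd exposure were frozen after a further passage that followed 2 h of recovery on food. By the study's methods, only exposed flies that left the column near the most common time for that exposure were kept. That time was longer at the 2nd exposure. The control flies did not pass through the column and were not selected in this way, and the 2nd exposure flies were taken after the recovery period. Ethanol, time in the vapor, this selection, handling and time of collection therefore cannot be told apart. Each array held a separate pool of flies, the whole body was extracted, and a change in the amount of a tissue and a change in RNA per cell cannot be told apart either. The measure is the Signal of Affymetrix Microarray Suite 5.0, a linear brightness that can be compared between arrays for 1 probe set but not between probe sets.

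The labelled sex and tissue were checked on marker genes. On all 15 arrays the 7 accessory gland probe sets were at a Signal of 6775 or more and 5 of the 8 testis probe sets at 1645 or more. The testis probe sets of dj, can and twe were at 311 to 575, 81.6 to 159 and 28.2 to 66.8. The summed Signal of 10 ovary and yolk probe sets was 168 to 393 on 14 arrays. On the remaining array, 2nd exposure replicate 5, that sum was 6731, with 6 of the 8 ovary and yolk genes at their highest there (yolk protein gene Yp1 at 2521, against 72.9 on the next array). The changes of HDAC1, CoRest and Sirt1 over control after the 2nd exposure are therefore also given without that array. No tested probe set of the testis, accessory gland, ovary and yolk, eye, flight muscle, fat body or gut lists was called between any pair of treatments. Only 5 of 10 ovary and yolk and 1 of 3 fat body probe sets were bright enough to be tested, and 2 of 5 eye genes had a probe set.

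After the 2nd exposure 3 of the 11 probe sets passed the test against control, HDAC1 and CoRest higher and Sirt1 lower. The same 3 differed from the 1st exposure in the same directions, and none differed between the 1st exposure and control. The test was limma's moderated t on log2 Signal over all 15 arrays, with Benjamini-Hochberg adjustment over 13809 probe sets and a threshold of 0.05. The members were chosen with earlier results of these data known, and the study itself lists Rpd3 as raised and Sir2 as lowered. A larger share called among the members than over all probe sets can therefore not be read as a result about the group. As background, 3.63% of all tested probe sets were called between the 2nd exposure and control (2.42% higher and 1.21% lower), 1.76% between the 2nd and 1st exposures (1.12% higher and 0.645% lower), and 0.362% between the 1st exposure and control. The split between the exposures depended on the scaling, with 154 probe sets higher and 89 lower as deposited, 94 higher and 111 lower with equalised array medians, and 93 higher and 80 lower after quantile normalization. These backgrounds also moved with single arrays. The 50 calls between the 1st exposure and control became 16 to 29 without any of 1st exposure replicates 1 to 4 or control replicates 1 to 4, and the 243 between the exposures became 119 to 157 without any of 1st exposure replicates 1, 2 and 4 or 2nd exposure replicates 1, 4 and 5. By the moderated F over the 3 treatments the same 3 of 11 passed, beside 3.61% of all tested (499 probe sets, and 287 to 317 without any of 2nd exposure replicates 1, 2, 4 and 5).

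**Figure D1:**
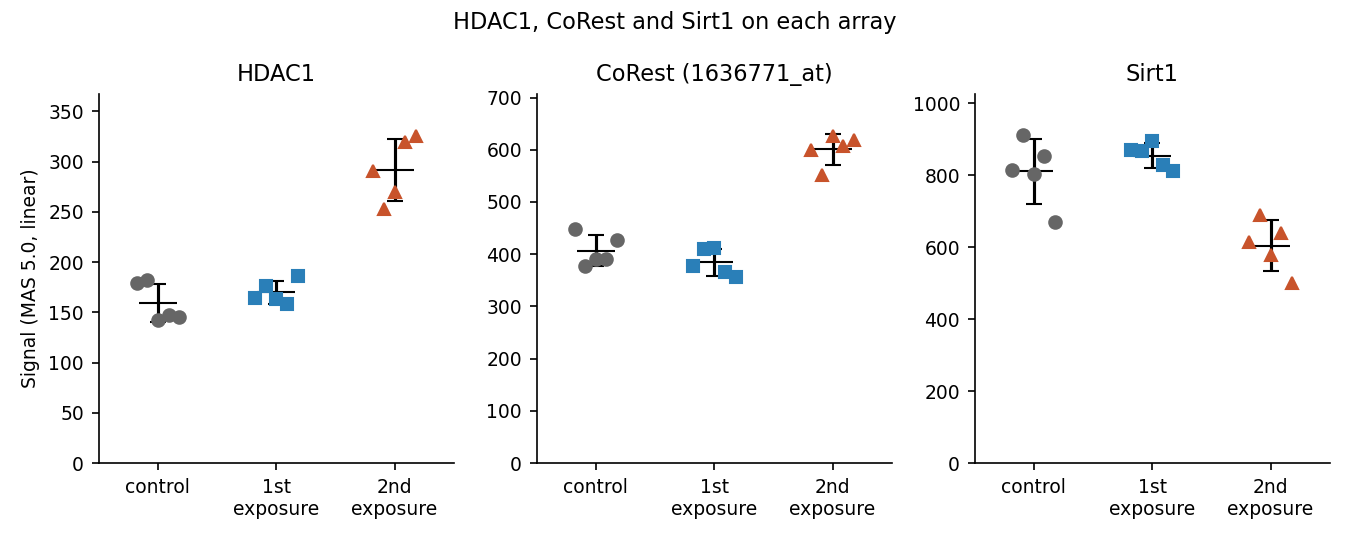
Signal (linear, each panel with its own axis from 0) of HDAC1, CoRest probe set 1636771_at and Sirt1 on the 15 arrays, in control, 1st exposure and 2nd exposure flies. Points are arrays, and bars are the mean ± SD of 5 arrays. HDAC1 and CoRest stand above both other treatments on all 5 arrays of the 2nd exposure, and Sirt1 stands below the 1st exposure on all 5.

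HDAC1, the class I deacetylase and catalytic subunit of several corepressor complexes, showed the largest change of the 11 probe sets after the 2nd exposure. Its Signal (probe set 1633700_at) was 179, 182, 143, 148 and 146 on the control arrays, 164, 176, 163, 159 and 187 after the 1st exposure and 291, 253, 270, 319 and 325 after the 2nd. Control and 1st exposure arrays overlapped, and the lowest array of the 2nd exposure lay well above the highest of either. The log2 fold change of the 2nd exposure over control was 0.87 ± 0.093 (SE), a 1.83-fold higher Signal (limma adjusted p = 0.000197), and over the 1st exposure it was 0.78 ± 0.093 (limma adjusted p = 0.000635). By the size of the moderated t, HDAC1 ranked 15 of 13809 in the first of these comparisons and 19 in the second. The highest HDAC1 value (325) stood on 2nd exposure replicate 5, the array with the ovary and yolk transcripts. Without that array the log2 fold change over control was 0.83 (limma adjusted p = 0.000826).

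After the 1st exposure the HDAC1 transcript averaged 170 ± 11.5 (SD, n = 5), against 159 ± 19.3 in control flies. The 95% interval of that log2 fold change ran from -0.10 to 0.30, which lies wholly under the interval for the 2nd exposure over control, 0.67 to 1.07.

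CoRest, the scaffold that links HDAC1 to the demethylase, was read by 3 probe sets that did not give the same picture. The bright one, 1636771_at, was at 447, 378, 392, 391 and 427 on the control arrays, 377, 409, 413, 366 and 357 after the 1st exposure and 600, 552, 627, 607 and 618 after the 2nd. All 5 arrays of the 2nd exposure were above the 10 others. Its log2 fold change was 0.56 ± 0.064 (SE) for the 2nd exposure over control, a 1.48-fold higher Signal (limma adjusted p = 0.000329), and 0.65 ± 0.064 over the 1st exposure (limma adjusted p = 0.00019), where it ranked 6 of 13809 by the moderated t. Without 2nd exposure replicate 5 the change over control was 0.55 (limma adjusted p = 0.00151). For the 1st exposure over control the value was -0.08, with a 95% interval of -0.22 to 0.06.

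The other CoRest probe sets were dim and scattered. Probe set 1623360_at was at 74.5, 42.4, 39.6, 57.9 and 80.1 on the control arrays, 60.2, 48, 66, 7.1 and 38.2 after the 1st exposure and 52.4, 39.5, 55.7, 73.5 and 69.6 after the 2nd. Probe set 1623954_s_at was at 20.9, 22.6, 48.2, 15 and 37.6 on the control arrays, 22.8, 13.8, 19.3, 25.7 and 33.7 after the 1st exposure and 35.5, 34.8, 14.6, 2.8 and 48.1 after the 2nd. The 3 treatments overlapped for both, and neither was called. Single arrays fell below a Signal of 20 on 1 array for the first of them and on 5 arrays for the second.

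By the limma intervals, which use 1 estimate of the spread over the 3 treatments, the dim probe sets could hold a change of the size seen on the bright one. For the 2nd exposure over control, the 95% interval of the log2 fold change ran from -1.05 to 1.06 on 1623360_at and from -1.85 to 0.89 on 1623954_s_at. On 1623360_at that spread takes in the Signal of 7.1 on 1st exposure replicate 4, an array of neither treatment compared. Within arrays, the change on 1636771_at was larger than that on 1623360_at by 0.56 on the log2 scale (exact permutation test of treatment labels, two-sided, p = 0.0476, adjusted p = 0.429 over 9 such tests) and larger than that on 1623954_s_at by 1.04 (exact permutation p = 0.262, adjusted p = 0.777). The first difference ran from 0.45 to 0.67 when any 1 of the 10 arrays compared was left out. The second difference was 0.35 without 2nd exposure replicate 4, where 1623954_s_at was at 2.8, and 0.56 with 50 added to the Signal. None of the 9 tests passed after adjustment. The smallest p that 5 arrays against 5 allow is 0.00794, which for 1 test alone at that value adjusts to 0.0714 over 9, so a disagreement in 1 pair and comparison alone could not have passed. When the 3 probe sets were averaged, the log2 fold change over control was 0.03 (limma adjusted p = 0.97), an average that weights the scattered dim probe sets as much as the bright one. Without 2nd exposure replicate 4 the change on 1623954_s_at alone was 0.21, against -0.48 with all arrays. Where in the gene each probe set lies is not given in the sources used here.

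**Figure D2:**
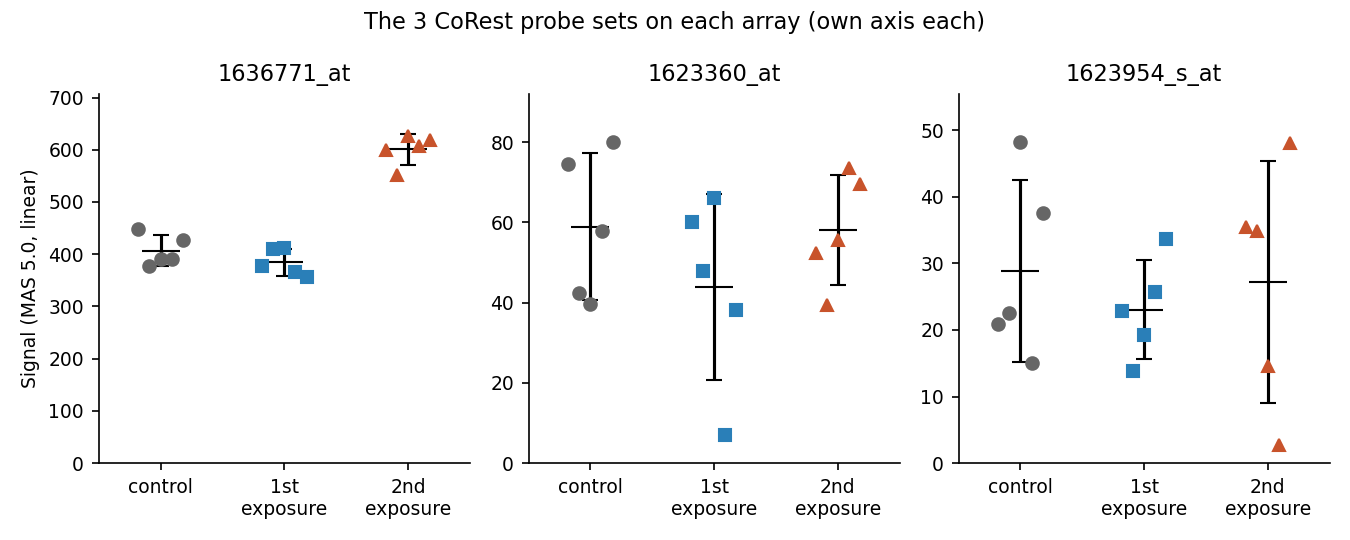
Signal (linear, own axis from 0 in each panel) of the 3 CoRest probe sets on the 15 arrays, in control, 1st exposure and 2nd exposure flies. Points are arrays, and bars are the mean ± SD of 5 arrays. Only 1636771_at separates the 2nd exposure from the other treatments. The dim probe sets 1623360_at and 1623954_s_at overlap throughout.

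Su(var)3-3, the demethylase of the CoRest complex, was at 124 to 181 on the control arrays (median 150), 137 to 164 after the 1st exposure (median 145) and 156 to 191 after the 2nd (median 172). Its log2 fold change was 0.19 for the 2nd exposure over control (95% interval -0.01 to 0.39, limma adjusted p = 0.345) and 0.21 over the 1st exposure (95% interval 0.01 to 0.41, limma adjusted p = 0.304). The arrays overlapped in both comparisons. The difference between its change and those of HDAC1 and CoRest was not tested.

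Sirt1, a nuclear sirtuin, was the member called lower after the 2nd exposure. Its Signal (probe set 1628368_at) was 815, 913, 804, 854 and 669 on the control arrays, 871, 866, 895, 829 and 812 after the 1st exposure and 613, 689, 579, 640 and 500 after the 2nd. The 1st exposure arrays lay close together and all above the 2nd exposure arrays, while control replicate 5 (669) fell below 2nd exposure replicate 2 (689). The log2 fold change was -0.42 ± 0.092 (SE) for the 2nd exposure over control, 0.745 of the control Signal (limma adjusted p = 0.0192), and -0.51 ± 0.092 over the 1st exposure, 0.704 of the Signal there (limma adjusted p = 0.0147). For the 1st exposure over control it was 0.08, with a 95% interval of -0.11 to 0.28.

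The lowest Sirt1 value stood on the array with the ovary and yolk transcripts, 2nd exposure replicate 5. Without that array the log2 fold change was -0.36 over control (limma adjusted p = 0.0417) and -0.44 over the 1st exposure (limma adjusted p = 0.033). With 2nd exposure replicates 4 and 5 both left out it was -0.37 over control (limma adjusted p = 0.0838) and -0.45 over the 1st exposure (limma adjusted p = 0.0632), which no longer passed.

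**Figure D3:**
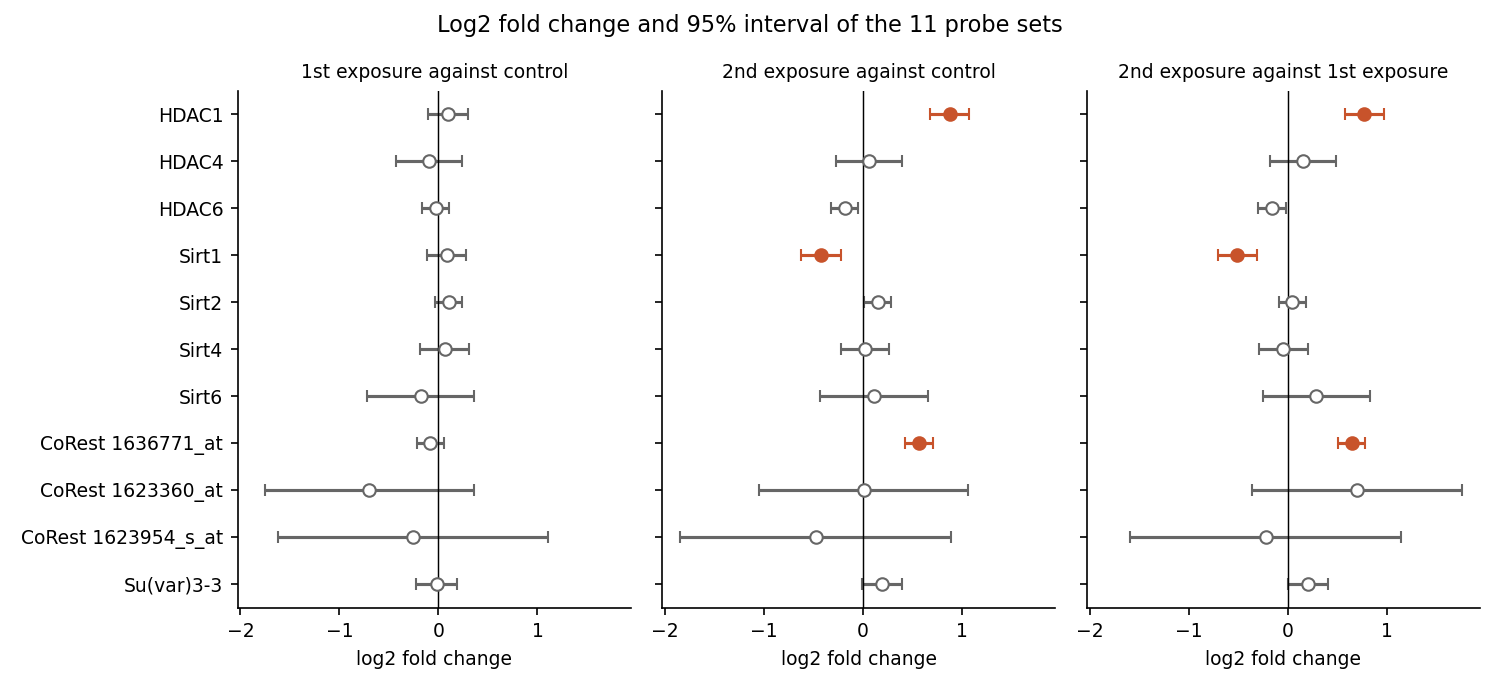
Log2 fold change of Signal (x axis, log2 units) for the 11 probe sets, in 3 panels for the 1st exposure against control, the 2nd exposure against control and the 2nd against the 1st exposure. Points are limma estimates over 15 arrays, bars are their 95% intervals, and filled points have an adjusted p under 0.05. HDAC1, CoRest 1636771_at and Sirt1 are filled in the 2 panels of the 2nd exposure, and no point is filled for the 1st exposure against control.

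HDAC6, which deacetylates tubulin and other cytoplasmic proteins, was at 951 to 1131 on the control arrays (median 1087), 942 to 1102 after the 1st exposure (median 1061) and 883 to 993 after the 2nd (median 902). Its log2 fold change for the 2nd exposure over control was -0.18 (95% interval -0.32 to -0.05), which did not pass after adjustment (limma adjusted p = 0.146), and the arrays overlapped. Sirt2, a sirtuin that in mammals is largely cytoplasmic, was at 1172 to 1355 on the control arrays (median 1210), 1206 to 1413 after the 1st exposure (median 1355) and 1249 to 1491 after the 2nd (median 1358). Its log2 fold change for the 2nd exposure over control was 0.15 (95% interval 0.01 to 0.28, limma adjusted p = 0.246). For both genes the interval leaves out changes as large as those of HDAC1 or CoRest 1636771_at in either direction.

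Sirt6, a nuclear sirtuin, was dim, at 25.6 to 54.6 on the control arrays (median 36.2), 23.6 to 44.9 after the 1st exposure (median 32.2) and 21.4 to 52.1 after the 2nd (median 43.8). Its log2 fold change of 0.11 for the 2nd exposure over control had a 95% interval of -0.43 to 0.65 (limma adjusted p = 0.879), so that a moderate change was not detectable at this brightness.

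HDAC4, a class IIa deacetylase whose entry into the nucleus is set by phosphorylation, and Sirt4, a mitochondrial sirtuin, were not called but varied more among the exposed arrays than among the controls. HDAC4 was at 130, 141, 140, 144 and 136 on the control arrays, 174, 118, 133, 112 and 118 after the 1st exposure and 203, 152, 155, 115 and 110 after the 2nd. Sirt4 was at 630, 690, 649, 660 and 638 on the control arrays, 584, 773, 566, 789 and 733 after the 1st exposure and 534, 608, 690, 749 and 756 after the 2nd. The coefficient of variation of HDAC4 was 3.86% in control flies, 19.2% at the 1st exposure and 25.4% at the 2nd, and that of Sirt4 was 3.61%, 15.4% and 14.3% in the same order.

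The exposed arrays with high HDAC4 were those with low Sirt4. The same arrays were split by the sign of their score, though not ordered by its size, on the first principal component of the residuals of all tested probe sets, which held 13.5% of the variance within treatments. On the 5 exposed arrays that scored under 0 (1st exposure replicates 1 and 3, 2nd exposure replicates 1, 2 and 3) HDAC4 was at 133 to 203 and Sirt4 at 534 to 690. On the 5 that scored over 0, HDAC4 was at 110 to 118 and Sirt4 at 733 to 789. The flight muscle markers moved with the same split, their summed Signal (4 probe sets) being 9311 to 22941 on the arrays under 0, 30286 to 55926 on those over 0 and 13843 to 34041 on control arrays. Control replicate 2 had the highest muscle sum of the control arrays (34041). Its HDAC4 (141) and Sirt4 (690) lay outside the ranges of the exposed arrays over 0. HDAC4, Sirt4 and the muscle probe sets are among the probe sets from which the component was computed. The part of muscle RNA in the HDAC4 and Sirt4 values was not tested. With 2nd exposure replicates 4 and 5 left out, the log2 fold change of the 2nd exposure over control became 0.29 for HDAC4 (limma adjusted p = 0.379) and -0.10 for Sirt4 (limma adjusted p = 0.773), against 0.06 and 0.02 with all arrays.

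**Figure D4:**
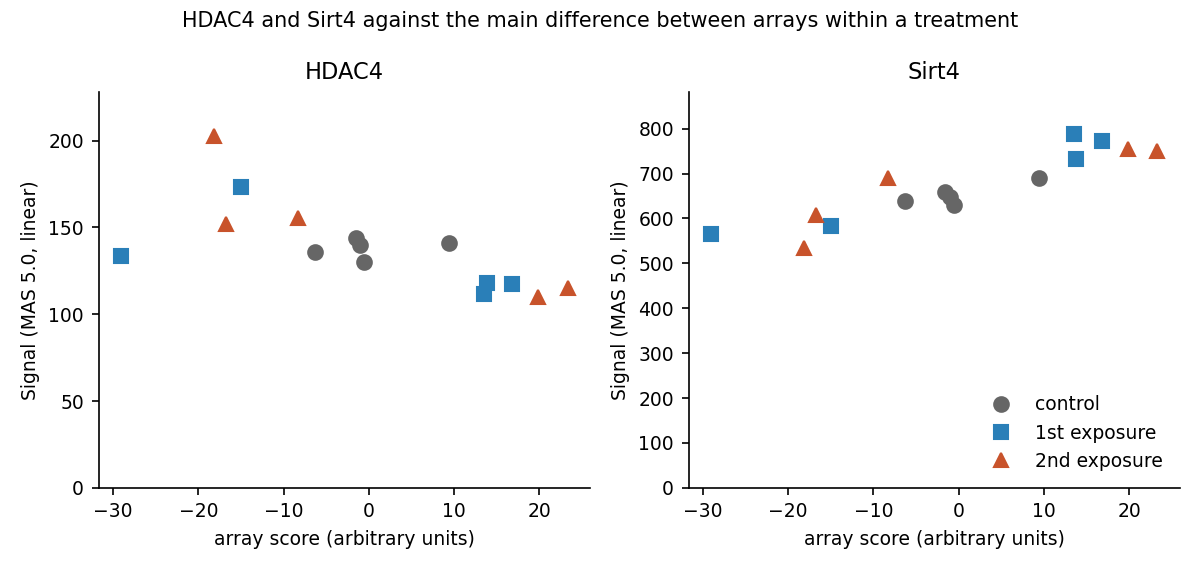
Signal (linear, y axes from 0) of HDAC4 and Sirt4 against the score of each of the 15 arrays on the first principal component of the residuals (x axis, arbitrary units), with control, 1st exposure and 2nd exposure arrays marked by shape. HDAC4 is at 110 to 118 and Sirt4 at 733 to 789 on the exposed arrays that score over 0.

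Over the 11 probe sets the median log2 fold change was -0.03 for the 1st exposure over control, 0.06 for the 2nd over control and 0.15 for the 2nd over the 1st, beside -0.02, 0.00 and 0.03 over all 13809 tested. The 5 arrays of 1 treatment lay wholly on 1 side of the other 5 for 0 of the 11 probe sets in the 1st exposure against control (2.8% of all tested), for 2 in the 2nd exposure against control (5.45% of all tested) and for 3 in the 2nd against the 1st exposure (4.87% of all tested). For the 1st exposure against control limma called none and none had an unadjusted p under 0.05. A contrast of these 2 treatments within the methods' one-way model on linear Signal, with Benjamini-Hochberg adjustment, called none either. The study's own tests of pairs of treatments were not run.

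Genes that work with or against these enzymes were read from 6 lists with 51 genes, of which 40 had a probe set of their own and 45 probe sets were tested. None was called between the 1st exposure and control, 1 rose in the 2nd exposure against control, and 1 rose in the 2nd exposure against the 1st. That is 1 of 45 in each, beside 3.63% and 1.76% of all tested, so the first share lies under the background and the second is close to it. Both genes are in the list of corepressor partners (14 tested probe sets). The median log2 fold change over the 45 was 0.08 for the 2nd exposure over control, beside 0.00 over all tested.

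The gene called against control was h (hairy), a repressor that recruits Groucho and, in flies, Sirt1. It was at 3166, 3269, 3281, 3193 and 2764 on the control arrays, 3705, 4059, 3612, 4121 and 3732 after the 1st exposure and 3980, 4197, 4381, 4444 and 4709 after the 2nd. All exposed arrays were above all control arrays, and the log2 fold change was 0.47 ± 0.066 (SE) for the 2nd exposure over control (limma adjusted p = 0.00146) and 0.30 ± 0.066 for the 1st exposure over control (limma adjusted p = 0.0838). The 2nd over the 1st exposure gave 0.17 (limma adjusted p = 0.214).

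The gene called between the exposures was Smr, which encodes the corepressor SMRTER, whose mammalian relatives SMRT and NCoR work with HDAC3. It was at 699, 688, 646, 655 and 673 after the 2nd exposure, against 573, 523, 600, 525 and 544 after the 1st, with control arrays between 559 and 656. The log2 fold change of the 2nd over the 1st exposure was 0.28 ± 0.059 (SE, limma adjusted p = 0.0276). This call was lost when any of 1st exposure replicates 2, 4 and 5 or 2nd exposure replicates 1, 2, 4 and 5 was left out (limma adjusted p = 0.0517 to 0.0793) and with the replicate number as a block (limma adjusted p = 0.0679).

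The other lists gave no call. HDAC11 and Sirt7, the remaining deacetylases of the fly in the lists, had log2 fold changes of 0.20 (95% interval -0.08 to 0.48) and 0.14 (95% interval -0.11 to 0.40) for the 2nd exposure over control. None of 11 acetyltransferase, 5 histone demethylase, 6 NAD synthesis and 7 HDAC4 regulator and partner probe sets passed in any comparison.

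**Figure D5:**
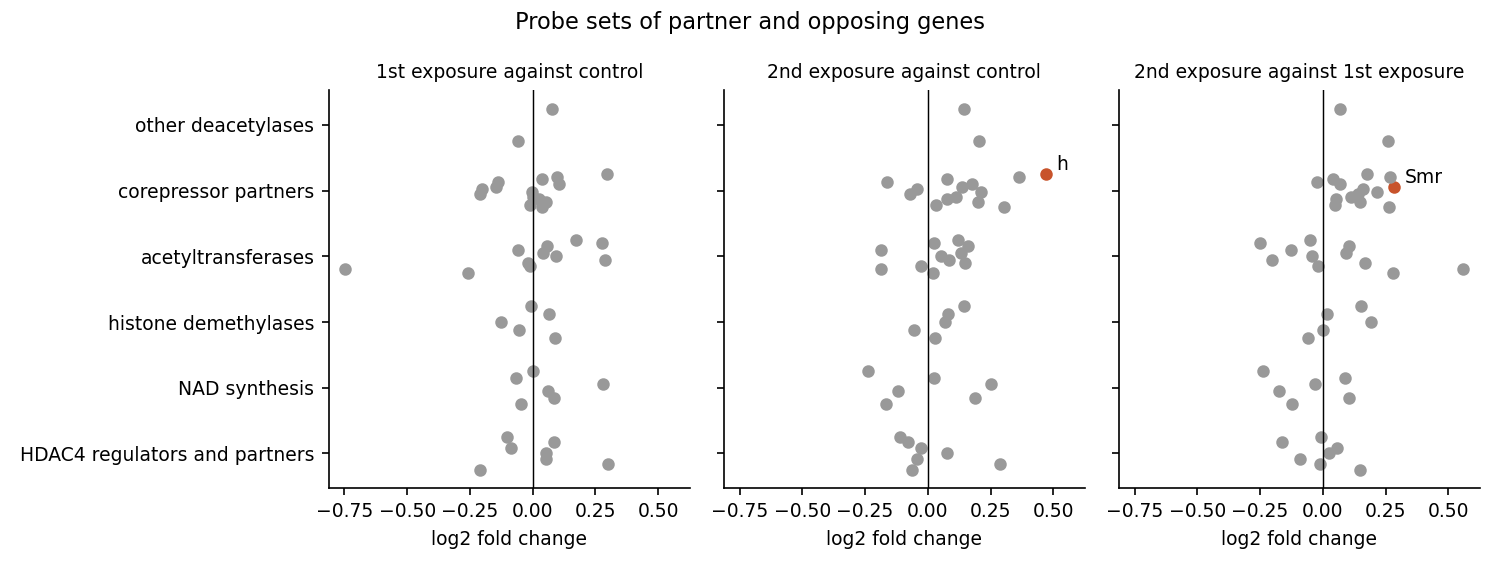
Log2 fold change of Signal (x axis, log2 units) of the 45 tested probe sets in 6 lists of partner and opposing genes, in 3 panels for the 1st exposure against control, the 2nd exposure against control and the 2nd against the 1st exposure. Each point is a probe set, spread vertically within its list, and named points have an adjusted p under 0.05. Only h is called against control after the 2nd exposure and only Smr between the exposures.

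The probe sets whose log2 Signal followed each called member most closely over the 15 arrays were listed as a description, since all of them share the treatments and the arrays. For HDAC1 these were CG11878 (Pearson r = 0.963), CG31106 (r = 0.948) and the metallothionein gene MtnD (r = 0.944). For CoRest 1636771_at they were CG15155 (r = 0.953), CG17752 (r = 0.942) and CG31272 (r = 0.933). For Sirt1 they were Ppcs (r = 0.908), REPTOR-BP, which encodes a bZIP factor of the TORC1 pathway (r = 0.902), and dsx, the sex determination factor doublesex (r = 0.893). The comparison ran over 11870 probe sets with 1 gene name for HDAC1 and Sirt1 and 11868 for CoRest.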

How the data were processed

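RNA of whole males was hybridised to Affymetrix Drosophila GeneChip 2.0 arrays, 5 per treatment. The authors computed the deposited Signal, a linear intensity per probe set, with Microarray Suite 5.0 (MAS5) and scaled each array. Median Signal per array then lay at 136 to 139 (control), 130 to 133 (1st exposure) and 139 to 142 (2nd exposure), and 22.3% to 27.2% of probe sets were under 20. The number of arrays limits the precision.

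Signal was taken as deposited and turned into log2. Without the 183 control probe sets, 13809 of 18769 passed the filter (mean Signal of 20 or more) and were tested. The study removed probe sets by detection calls, which were not used here. limma 3.58.1 in R 4.3.3 fitted 1 mean per treatment over all 15 arrays (lmFit, eBayes), with Benjamini-Hochberg adjustment at 0.05, as the methods' model has 1 treatment effect. The script was tested on simulated data. Probe sets of a gene were compared by an exact permutation test (scipy 1.17.1). Names came from the platform annotation, in which 13647 probe sets list 1 gene and 402 several, updated through RefSeq gene identifiers. Probe sets ending in _s_at can bind transcripts of more than 1 gene. Sirt4 (1623881_s_at), Su(var)3-3 (1634524_s_at) and Smr (1630101_s_at) were read only by such probe sets.

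All member probe sets were accounted for, with array values for those past a test and for genes whose probe sets differ in call. Listed partner genes were named where a comparison called them, and the 3 genes most like each called member were given. Members and lists were chosen with earlier results of these data known. Alternatives were other normalizations, scales, filters, variance models, sample sets and a replicate block. Promoter sequences were not used here. The replicates are separate pools of flies. By the study's methods, the pools of all treatments in a replicate were taken from shared starting groups, and whether equal array numbers mark such a replicate is not given in the sources used here.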

Additional observations from a re-analysis of the deposited data

Results flagged for a closer look

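In 39 groups of 5 arrays (11 member probe sets, Smr and h in 3 treatments each), 2 held an array far from the other 4 on the log2 scale, where chance gives about 1 in 20 groups. CoRest probe set 1623360_at was at 7.1 on 1st exposure replicate 4, with the next array at 38.2 and the highest at 66. h was at 2764 on control replicate 5, with the next array at 3166 and the highest at 3281. No cause of either was tested.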

How the results depend on the processing

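The number of member probe sets called stayed within 1.5 times the main count in every comparison under all alternatives, as did the number whose arrays did not overlap with other scalings or 1 array left out. Without 1 array it was 0 for the 1st exposure against control and 3 in the other comparisons. Whether array numbers mark flies of shared starting groups is not given, and the residuals showed no such pairing (residual correlations of same-numbered arrays -0.0731 to 0.0982, median 0.00328, 3 of 15 arrays nearest to their own number). With the replicate number as a block, 0, 3, 3 and 3 members were called, and of the genes described only Smr lost its call. HDAC1 was called against control and against the 1st exposure under all 29 alternatives (log2 fold change over control 0.71 to 0.92).

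The Sirt1 call against control was lost when 2 treatments were fitted at a time (-0.42, adjusted p = 0.0768), when 2nd exposure replicates 4 and 5 were left out (-0.37) and when the nearest arrays were averaged (-0.41, adjusted p = 0.0587), and against the 1st exposure with replicates 4 and 5 left out (-0.45) and with the nearest arrays averaged (-0.51, adjusted p = 0.0507). Leaving out or averaging arrays leaves fewer of them. Over single arrays left out it ran from -0.49 to -0.36 over control and from -0.56 to -0.44 over the 1st exposure, called each time. CoRest lost its call when its probe sets were averaged (0.029 over control, 0.37 over the 1st exposure).

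Of partner genes, 1 was called for the 1st exposure against control under a variance trend, array weights or the residual component as covariate (h each time). Against control after the 2nd exposure 2 (h and 1 probe set of Nmnat) were called with array weights or that covariate, and 1 to 2 without 1 array. Nmnat was read by 3 probe sets, which in the main fit gave log2 fold changes over control of 0.25, -0.12 and 0.02, none of them called. Between the exposures 0 were called without a filter, with the block, without 2nd exposure replicates 4 and 5 and with nearest arrays averaged, and 0 to 1 without 1 array. By the F, 1 was called with equalised medians and under those last 4 settings, and 1 to 2 without 1 array.

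Directions turned in uncalled values only. For the 1st exposure over control, HDAC6 gave 0.0027 and Su(var)3-3 0.011 with equalised medians, and Su(var)3-3 gave 0.040 with quantile normalization. For the 2nd exposure over control, CoRest 1623360_at gave -0.066 with quantile normalization, -0.0069 with equalised medians, a Signal difference of -0.76 on the linear scale, -0.0032 with 50 added, -0.072 with array weights and -0.22 without replicates 4 and 5, where Sirt4 gave -0.10. For the 2nd over the 1st exposure, CoRest 1623954_s_at gave a Signal difference of 4.1 on the linear scale, 0.050 with 50 added and 0.25 without replicates 4 and 5, and Sirt4 gave 0.0050 with nearest arrays averaged.

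With single arrays left out, these uncalled values changed sign. For the 1st exposure over control, HDAC6 ran from -0.064 to 0.0061 and Su(var)3-3 from -0.087 to 0.049. For the 2nd exposure over control, HDAC4 ran from -0.069 to 0.15, Sirt4 from -0.028 to 0.097, Sirt6 from -0.017 to 0.33, CoRest 1623360_at from -0.12 to 0.14 and CoRest 1623954_s_at from -0.82 to 0.21. For the 2nd over the 1st exposure, Sirt4 ran from -0.11 to 0.033 and CoRest 1623954_s_at from -0.56 to 0.47.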
